A study of Homo sapiens with 6 samples.

Results

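Contacts within chromosome 1 were described in the colorectal cancer line SNU-C1, beside the colorectal line SW480, the breast line HCC1954 and the esophageal adenocarcinoma line OE33. The description covers all pairs of 40-kb bins on chromosome 1, and it turns on 2 long-range contacts of SNU-C1, one on the short arm between 37.2 and 38.5 Mb and one on the long arm between 200.8 and 209.2 Mb. Both contacts were chosen by this same contrast, high in the SNU-C1 map and low in the other 3 lines, so their heights are given as descriptions with no test. Of the 6232 bins of chromosome 1, 5320 were usable in all 4 lines, which gave 14148540 of the 114060771 usable bin pairs within all chromosomes. A single map was given for each of SNU-C1, HCC1954 and OE33. SW480 came with 2 replicates and an unnumbered map that equalled their sum at 99.8% of 2418431 bin pairs on chromosome 1 and was treated as their pool. All 4 are established tumor cell lines for which no treatment is given, and each is a cancer genome with many alterations, so no map stands for a normal chromosome. The methods describe Hi-C in duplicate, so each single map may combine several libraries, and replicate maps of SNU-C1, HCC1954 or OE33 were not analysed here. Their spread between replicates is therefore unknown, and no test between lines was made. Expression was not measured, so the labelled tissue was not checked against marker genes.

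Hi-C ligates and sequences pieces of DNA that neighbour each other in the crosslinked nucleus, and contact frequency falls steeply with distance along a chromosome. Chromosomes fold into topologically associating domains (TADs), which are stretches of preferred contact separated by boundaries where the protein CTCF and cohesin are often bound. When a rearrangement brings distant segments next to each other, a patch of high contact appears at their coordinates, and the corner in which it lies shows which sides of the ends are neighbours. If a segment is absent from a chromosome copy, its outer flanks gain contact, whereas a segment turned around in place brings the 2 left sides together and the 2 right sides together. Contact across such a junction can fall off at boundaries that existed beforehand, and genes can come to lie in a domain with sequence that was far away.

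The deposited values were contact frequencies after iterative correction, and numbers of read pairs were recovered from them. Of the values tested on chromosome 1, 99.7% to 100% came within a small set tolerance of a whole number. Chromosome 1 held 9575080 recovered read pairs in SNU-C1, 10109046 in SW480 (4996958 in replicate 1 and 5110911 in replicate 2), 8540131 in HCC1954 and 6618322 in OE33. Contacts are given as observed over expected (O/E), the corrected contact divided by the mean at the same distance over all chromosomes of that map. Intervals are exact 95% Poisson intervals of the recovered read pairs, except those of log2 ratios at boundaries. The latter are 95% normal approximations from the summed read pairs within and beyond the boundaries. Both kinds cover counting error only. Log2 ratios at boundaries are unweighted means over summed distances, so their intervals leave out the spread between distances and can be too narrow. Coverage is a count of the read pairs that a bin makes within its chromosome, divided by the median over the autosomes, and relative coverage is that value divided by the median of the other 3 lines. Left and right mean lower and higher hg19 coordinates.

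Sequence was read at the places where the contacts start and stop, because boundaries separate the genes of neighbouring domains. The 12-base core of the CTCF motif was searched on both strands within 120 kb around each boundary. It was present at 121 (56.3%) of the 215 boundaries of chromosome 1 and in 36.7% of all windows of that length around usable bins. Among the 7 boundaries nearest to the ends of the 2 contacts, 3 matches lay at 2 boundaries, both beside the left end of the long-arm contact, and the other 5 held 0 matches. The matches are shown 5′ to 3′ on their own strand with 9 bases on each side and the core in capitals.
CTCF core left of the end, minus strand, chr1:200479431-200479460, between genes: tcacattggCCACTAGATGGCagtgtctca
CTCF core right of the end, minus strand, chr1:201330937-201330966, intron of TNNT2: tgctgtgagCCACCAGAGGGCaggactgcc
CTCF core right of the end, plus strand, chr1:201417391-201417420, between genes: caggttaggCCACCAGGGGGCagccccacc
A match to the core is a description of the sequence and not evidence of binding. The promoter of LAMB3, which encodes a laminin chain of epithelial basement membranes, is shown because this gene lies right of the long-arm contact and its contacts with genes on the left are given with the values of SNU-C1. It runs from 250 bases before to 30 bases after the annotated start, with the MboI site used to cut the chromatin, GATC, in capitals.
LAMB3 promoter, minus strand, chr1:209825741-209826020: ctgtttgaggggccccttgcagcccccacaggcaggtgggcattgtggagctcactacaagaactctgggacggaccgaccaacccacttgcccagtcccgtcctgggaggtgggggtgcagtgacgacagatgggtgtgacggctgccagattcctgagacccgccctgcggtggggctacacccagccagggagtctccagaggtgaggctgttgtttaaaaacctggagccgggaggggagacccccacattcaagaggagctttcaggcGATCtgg
The LAMB3 promoter held 1 MboI site and those of KIF14, POU3F1 and CSF3R held 0, and 867 (41.4%) of 2092 protein-coding promoters on chromosome 1 held at least 1. Over whole 40-kb bins the median was 101 sites, and 5% of the usable bins held 77 or fewer.

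The join with the higher O/E linked 200.76 Mb to 209.16 Mb on the long arm of SNU-C1. Summed over 3 by 3 bins, it held 656 read pairs (607 to 708) in SNU-C1, which gave an O/E of 62.9. The same bins held 1 read pair in SW480 (1 in replicate 1 and 0 in replicate 2), 5 in HCC1954 and 1 in OE33, with O/E values of 0.117, 0.607 and 0.182. SNU-C1 stood apart from every other map, and the ratio of its O/E to that of HCC1954, the highest of the others, was 57.3 after 0.5 was added to each. The ratio to the highest other line was 34.5 over a single bin pair and 29.3 over 5 by 5 bins. By the rule for a join, a mean contact at least equal to the mean at 400 kb and at least 4 times every other line, chromosome 1 had 2 joins in SNU-C1 and 0 in each of the other 3 lines. The joins held 20 bin pairs, 0.000143% of those tested on chromosome 1, and over all chromosomes the share was 0.000185% in SNU-C1, 0.000174% in SW480, 9.95e-05% in HCC1954 and 7.11e-06% in OE33.

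The high contact filled a single corner. Contacts were summed over 400 kb on each side of both ends, which were placed at 200.84 Mb (end 1) and 209.08 Mb (end 2), 8.24 Mb apart. Sequence left of end 1 and right of end 2 shared 2986 read pairs in SNU-C1 (2880 to 3095), an O/E of 29.9. That corner held 48 read pairs in SW480, 73 in HCC1954 and 19 in OE33. The remaining corners of SNU-C1 held 29, 8 and 21 read pairs, in the order left with left, right with left and right with right, so the segment between the ends showed no raised contact with the sequence outside the opposite end. If the ends were adjacent, the bins of the high corner would lie at short distances, and SNU-C1 reached 48.8% of its own mean contact at those distances against 1.07%, 1.33% and 0.537% in SW480, HCC1954 and OE33.

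**Figure D1:**
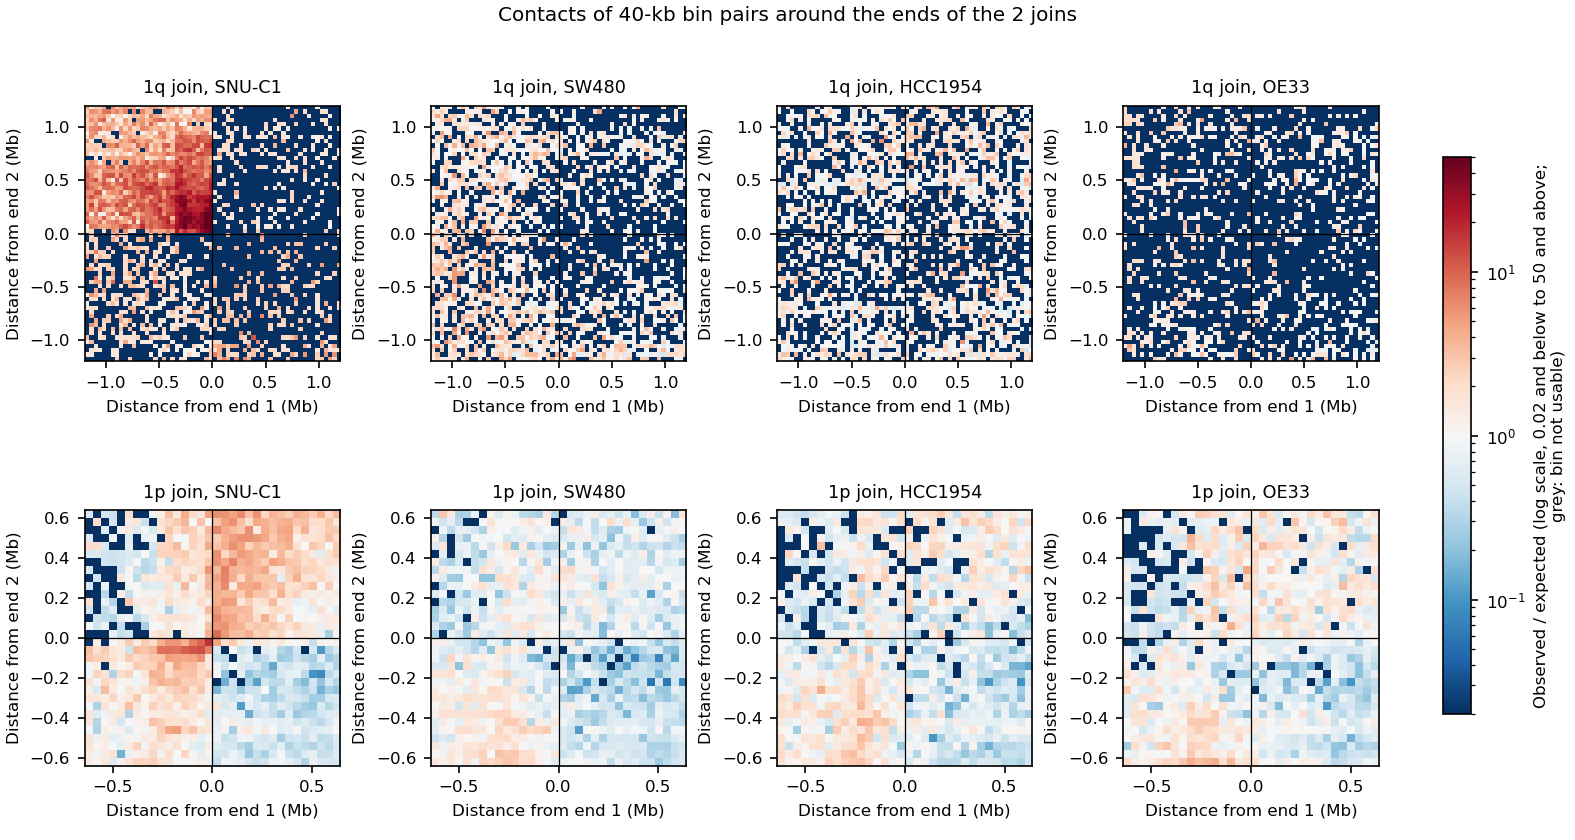
Observed/expected contact (colour, log scale) of 40-kb bin pairs around the ends of the long-arm join (upper row) and the short-arm join (lower row) in the 4 lines, with distance from end 1 (Mb) on the x axis and from end 2 (Mb) on the y axis, and pairs without a read at the lowest colour. SNU-C1 alone has a filled upper left corner on 1q (O/E 29.9 within 400 kb) and filled lower left and upper right corners on 1p (O/E 3.07 and 3.26).

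From the ends outwards the long-arm contact declined in SNU-C1. Left of end 1 with right of end 2, the O/E was 54.0 where the summed distance from both ends was below 0.2 Mb, 29.4 from 0.2 to 0.4 Mb, 12.3 from 0.4 to 1 Mb, 4.74 from 1 to 2 Mb and 2.54 from 2 to 4 Mb. The last of these still rested on 7034 read pairs. The other lines stayed between 0.137 and 1.25 over the same steps and showed no such decline. Measured against the mean at the joined distance, SNU-C1 rose from 37.9% in the innermost step to 77.2% in the outermost. The other lines rose as well, from 0.274% to 33.5% in SW480, from 0.959% to 22.8% in HCC1954 and from 0.480% to 19.2% in OE33.

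**Figure D2:**
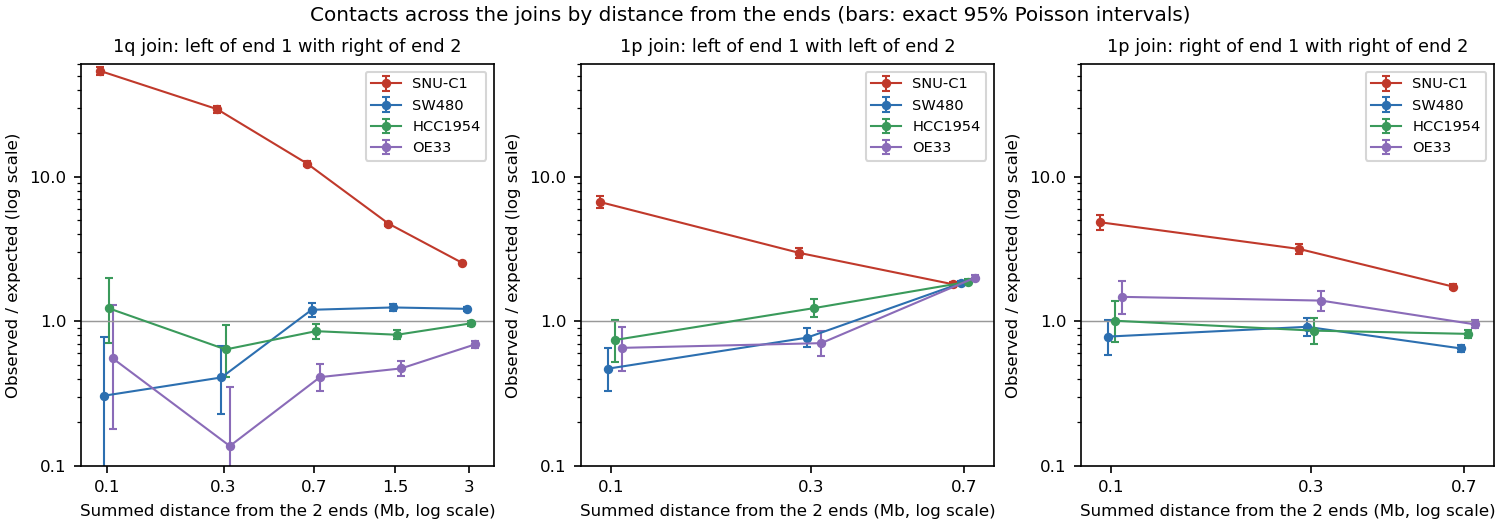
Observed/expected contact (log scale) against the summed distance from the 2 ends (Mb, log scale) for the long-arm join and both high corners of the short-arm join, with lines as colours and bars as exact 95% Poisson intervals. On 1q SNU-C1 fell from 54.0 to 2.54 and stayed above the other lines throughout, whereas in the left-with-left corner of 1p the 4 lines met between 0.4 and 1 Mb.

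Coverage between the ends of the long-arm join was low in SNU-C1. Over 188 usable bins of 206, its median coverage was 0.647 (quartiles 0.569 and 0.715), against 1.38 in the 1 Mb to the left and 1.37 in the 1 Mb to the right. The median between the ends was therefore 0.470 of that of the flanks in SNU-C1, compared with 0.836 in SW480 (0.838 in replicate 1 and 0.829 in replicate 2), 0.744 in HCC1954 and 1.01 in OE33. Relative to the median of the other lines, SNU-C1 had 0.516 between the ends, 1.09 on the left and 1.04 on the right, and 174 of the 188 bins lay below the lowest of 50 flanking bins. In SW480, HCC1954 and OE33 the numbers of bins below the lowest flanking bin were 3, 5 and 0. Fewer chromosome copies and fewer read pairs per copy cannot be told apart in these maps. Coverage also differed between the other lines here, with relative values of 1.49 in HCC1954, 1.31 in OE33 and 0.780 in SW480 between the ends.

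The fall in coverage coincided with the ends of the contact to within 1 bin. Relative coverage of SNU-C1 was 1.22 in the bin at 200.8 Mb and 0.504 in the next bin, at 200.84 Mb. At the other end it was 0.599 at 209.04 Mb, 0.669 at 209.08 Mb and 1.38 at 209.12 Mb, so the step lay 1 bin to the right of the edge taken from the contacts. The bins held 86 MboI sites at 200.8 Mb and 130 at 200.84 Mb, and 96, 95 and 102 in the 3 bins of the right end, and their part in the coverage was not tested.

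**Figure D3:**
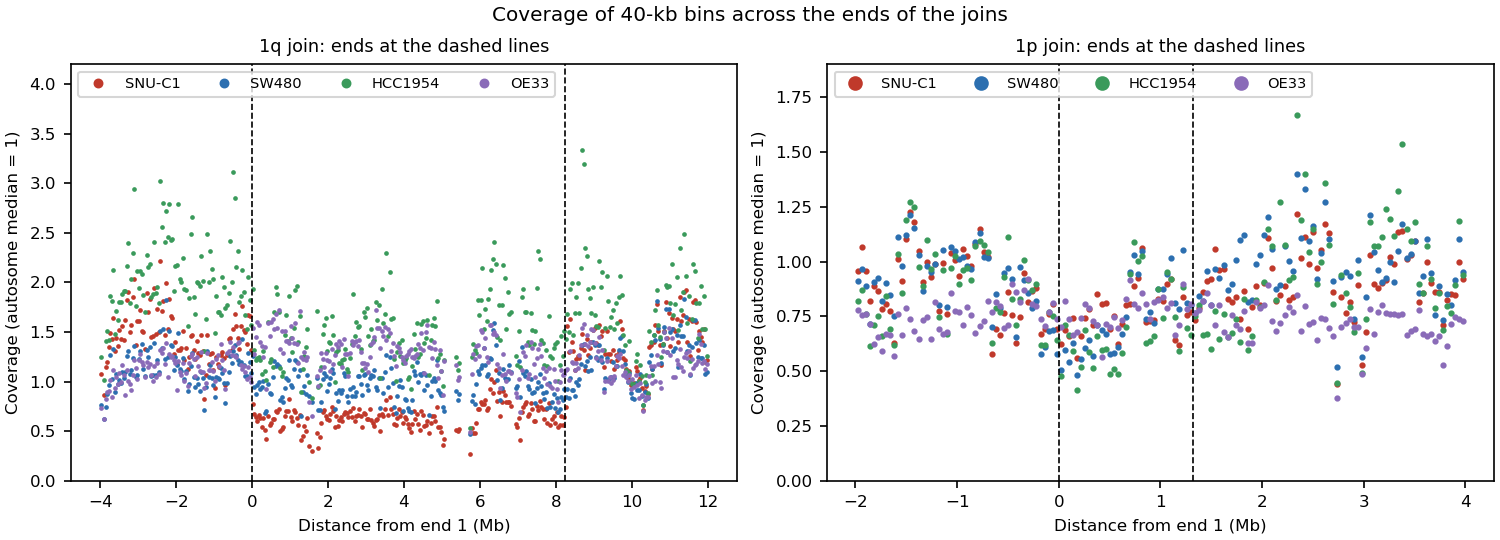
Coverage of 40-kb bins (1 is the autosome median of each line) against distance from end 1 (Mb) for the long-arm join and the short-arm join, with the ends as dashed lines and lines as colours. Between the ends on 1q the SNU-C1 median is 0.647 against 1.38 and 1.37 outside, and on 1p it is 0.753 against 0.814 and 0.848.

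With the ends as placed, the start sites of 107 protein-coding genes, from GPR25 to PLXNA2, lay between the ends of the long-arm join. The bins beside the left end held CAMSAP2 (chr1:200708021-200829832), GPR25 (chr1:200842109-200843306), an orphan G-protein-coupled receptor, and INAVA, an adaptor of innate immune signalling in epithelia and macrophages. At the resolution of the bins, the end could not be placed inside or between these genes. KIF21B, a kinesin, and CACNA1S, a calcium channel subunit of skeletal muscle, followed to the right. No protein-coding gene overlapped the right end, and the nearest was PLXNA2 (chr1:208195587-208417729), a semaphorin receptor with its start 0.66 Mb to the left. Left of it lay CD34, a surface protein of blood progenitors and endothelium, and CD46, a regulator of complement. To the right of that end, between 0.68 and 0.78 Mb away, were CAMK1G, LAMB3, G0S2, an inhibitor of triglyceride breakdown, and HSD11B1, which regenerates active cortisol.

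MDM4, ELK4 and IL10, from a list of chromosome 1 cancer and developmental genes, lay between these ends and had low coverage in SNU-C1. Over 1 Mb around MDM4, a negative regulator of p53, coverage was 0.645 in SNU-C1, 0.944 in SW480, 1.42 in HCC1954 and 1.36 in OE33. Around ELK4, an ETS transcription factor, the values were 0.582, 1.004, 1.42 and 1.32, and around IL10, an anti-inflammatory cytokine, they were 0.772, 1.08, 1.75 and 1.31. SNU-C1 was the lowest line at each of them, with relative coverage of 0.490, 0.457 and 0.574.

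Boundaries were placed from insulation, the log2 mean contact across a bin within 1 Mb relative to the chromosome, which is lowest where few contacts cross. The mean of SW480, HCC1954 and OE33 had 215 boundaries on chromosome 1 and SNU-C1 had 237. Of the 215, 180 (83.7%) lay within 40 kb of one in SNU-C1, and of the 237, 180 (75.9%) lay within 40 kb of one in the other lines. Between the SW480 replicates the shares were 92.9% and 92.5%. Around the long-arm join the nearest boundaries of the other lines were at 200.48 and 201.36 Mb for end 1 and at 207.96 and 210.0 Mb for end 2. In SNU-C1 the boundary nearest to end 2 was at 209.72 Mb. At 200.48 Mb insulation was -1.41 in SNU-C1, -0.90 in SW480 (-0.91 and -0.88 in the replicates), -0.69 in HCC1954 and -0.86 in OE33, so SNU-C1 had the lowest value there. The window at that boundary crosses end 1, and the part of the join in this value was not tested. Inside the segment 7 of 9 boundaries of the other lines had a SNU-C1 boundary within 40 kb.

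Contact across the long-arm join was higher within the nearest boundaries of the other lines than beyond them. Bin pairs at summed distances of up to 1.2 Mb were compared. Some had both bins inside the stretches from 200.48 Mb to end 1 and from end 2 to 210.0 Mb. Their mean O/E in SNU-C1 was 14.8, and that of pairs beyond either boundary was 7.89. These means were not matched for distance. The log2 ratio matched for distance was 0.62 (0.53 to 0.70) over 2472 and 1949 read pairs. In the other lines, where these bins are far apart, it was -0.26 (-0.52 to 0.00) in SW480, 0.20 (-0.09 to 0.49) in HCC1954 and 0.38 (-0.17 to 0.93) in OE33. The intervals of SNU-C1 and OE33 overlapped, the latter with 49 and 57 read pairs. Summed distances without contact on either side were left out, so the ratios averaged 22 distances in SNU-C1 and SW480, 20 in HCC1954 and 15 in OE33.

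Genes of the 2 flanks came into frequent contact in SNU-C1. CAMSAP2, whose product binds the minus ends of microtubules, and LAMB3, whose promoter is printed above, start 9.12 Mb apart in hg19 and 0.878 Mb apart with the segment left out. Their 3 by 3 bins shared 85 read pairs in SNU-C1 (O/E 9.15), 19 in SW480 (11 and 8 in the replicates; O/E 1.93), 11 in HCC1954 (1.32) and 6 in OE33 (0.8502). KIF14, a kinesin of cell division, and CAMK1G, a calcium-dependent kinase, shared 101 read pairs in SNU-C1 (O/E 11.8), 12 in SW480, 10 in HCC1954 and 1 in OE33. DDX59, an RNA helicase, and LAMB3 shared 105, 21, 7 and 7 in the same order. In each of these pairs SNU-C1 held the most read pairs.

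Over all 12 pairs of CAMSAP2, DDX59 and KIF14 with CAMK1G, LAMB3, G0S2 and HSD11B1, the O/E ran from 9.15 to 11.8 in SNU-C1, from 0.902 to 2.10 in SW480, from 0.651 to 1.77 in HCC1954 and from 0.165 to 1.08 in OE33. Neighbouring genes share bins, so these pairs are not independent. MIR205HG, the host transcript of the epithelial microRNA miR-205, was chosen after its values were seen. It shared 127 read pairs with KIF14 in SNU-C1 (O/E 14.1), against 15, 16 and 5 in SW480, HCC1954 and OE33. With NR5A2, a nuclear receptor further to the left and also chosen afterwards, it shared 51 read pairs (O/E 7.70) against 11, 9 and 5.

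Contact across each end in the reference order was measured as well. Within 1 Mb on each side of end 1, and at least 0.2 Mb apart, the corrected O/E across the end was 0.548 in SNU-C1, 0.639 in SW480, 0.709 in HCC1954 and 0.517 in OE33. Across end 2 it was 1.14 in SNU-C1, 1.15 in SW480, 1.36 in HCC1954 and 1.46 in OE33. SNU-C1 lay inside the range of the other lines at end 1 and at end 2 close to SW480, the lowest of the others. These values were corrected for the coverage of each bin.

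The short-arm contact had a lower O/E and lay much closer to the diagonal. By the measure of the rule, the mean corrected contact before division by the expected value, it was the higher of the 2, with 59.9 against 50.1 for the long-arm join. Its highest 3 by 3 bins, at 37.16 and 38.48 Mb, held 301 read pairs (268 to 337) in SNU-C1 and had an O/E of 8.42. The same bins held 26 read pairs in SW480 (13 in each replicate), 27 in HCC1954 and 22 in OE33, with O/E values of 0.543, 0.839 and 0.732. The ratio to the highest other line was 6.66, with 11.6 over a single bin pair and 4.22 over 5 by 5 bins. The central bin pair alone held 50 read pairs in SNU-C1, 0 in SW480, 0 in HCC1954 and 2 in OE33.

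On the short arm 2 opposite corners were high, where the long arm had 1. With the ends at 37.24 and 38.56 Mb, 1.32 Mb apart, left of end 1 with left of end 2 held 1365 read pairs in SNU-C1 (O/E 3.07), against 592 in SW480, 569 in HCC1954 and 368 in OE33 (0.964, 1.35 and 0.912). Right of end 1 with right of end 2 also held 1365 read pairs in SNU-C1 (O/E 3.26), against 425, 249 and 363 (0.831, 0.908 and 1.29). The equal counts were summed over separate bins, and the reason for their equality was not tested. SNU-C1 exceeded each other line more than 2-fold in both corners. The outer corner, left of end 1 with right of end 2, had 450 read pairs in SNU-C1 (O/E 1.48, 1.35 to 1.63), 419 in SW480 (1.01), 232 in HCC1954 (0.944) and 264 in OE33 (1.22), and the inner corner had O/E values of 0.567, 0.433, 0.618 and 0.604.

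In SNU-C1 the high corners reached 46.9% (left with left) and 49.7% (right with right) of the mean at the distance that adjacent ends would give. The other lines were well above their values on the long arm, with 17.4% and 15.0% in SW480, 25.4% and 17.1% in HCC1954 and 15.996% and 22.7% in OE33. The corners differed in how the excess faded. Left with left, the O/E of SNU-C1 was 6.68 below 0.2 Mb of summed distance, 2.97 from 0.2 to 0.4 Mb and 1.80 from 0.4 to 1 Mb, where the other lines had 1.83, 1.87 and 2.00. Right with right, the O/E of SNU-C1 was 4.84, 3.16 and 1.74. At the last step SW480, HCC1954 and OE33 had 0.649, 0.818 and 0.952 there, so the excess of SNU-C1 persisted. In both corners bin pairs of that last step include short distances in the reference order too, and the cause of the difference between the corners was not tested.

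Coverage between the ends of the short-arm contact was close to that of its flanks in SNU-C1 when all pairs were counted. Over 33 bins between the ends the median coverage was 0.753 in SNU-C1, 0.718 in SW480, 0.663 in HCC1954 and 0.784 in OE33. Relative coverage of SNU-C1 was 1.02 between the ends, 1.02 in the 1 Mb to the left and 1.05 in the 1 Mb to the right, and 0 of its 33 bins lay below the lowest flanking bin. The median between the ends was 0.906 of that of the flanks in SNU-C1, 0.768 in SW480, 0.793 in HCC1954 and 1.02 in OE33. Against OE33 alone the relative coverage turned, with 0.970 between the ends. From pairs at least 1 Mb apart it was 1.198 between the ends, 0.925 on the left and 1.25 on the right, so it was not close to the left flank. From all pairs, relative coverage in the 4 bins on each side of each end ran from 0.869 to 1.23 without a step. RSPO1, a secreted enhancer of WNT signalling and the only gene of the list between these ends, had a coverage of 0.802 in SNU-C1, 0.785 in SW480, 0.699 in HCC1954 and 0.788 in OE33.

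The nearest boundaries of the other lines were at 36.92 Mb, at 38.28 Mb between the ends and at 39.52 Mb. SNU-C1 shared the outer pair, with insulation of -0.96 and -0.64. At 38.28 Mb its insulation was 0.27, against -0.46 in SW480 (-0.45 and -0.46 in the replicates), -0.33 in HCC1954 and -0.32 in OE33, and the nearest SNU-C1 boundary was at 38.48 Mb. Insulation at a bin beside the join includes contacts of the join itself. SNU-C1 was the single map with a positive value at 38.28 Mb. The place of the nearest boundary depended on the insulation window. With a 480-kb window the nearest boundary of the other lines left of end 2 was 0.04 Mb from that end, the same distance as in SNU-C1.

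Matched for summed distance, contact in the left-with-left corner was higher within the boundaries than beyond them by a log2 ratio of 0.88 (0.68 to 1.08) in SNU-C1, with 0.46 (0.19 to 0.73) in SW480, 0.37 (0.09 to 0.64) in HCC1954 and -0.13 (-0.49 to 0.23) in OE33. The intervals of SNU-C1 and SW480 overlapped. In the right-with-right corner the ratio was 1.33 (1.10 to 1.55) in SNU-C1, 0.02 in SW480, 0.58 in HCC1954 and 0.61 (0.36 to 0.87) in OE33. SNU-C1 had the highest ratio, but some of the pairs beyond the boundaries lie close together in the reference order, and few distances were averaged. There the ratios averaged 6 summed distances in SNU-C1 and SW480 and 5 in HCC1954 and OE33.

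The short-arm segment held the start sites of 20 protein-coding genes, from GRIK3 to POU3F1. The left end lay nearest to GRIK3 (chr1:37261128-37500116), a kainate-type glutamate receptor subunit transcribed towards that end from a start 0.26 Mb away. The right end lay at POU3F1 (chr1:38509501-38512465), a POU-domain transcription factor of neural and glial development, and UTP11, a factor of small ribosomal subunit assembly. FHL3, a LIM-domain protein, and SF3A3, a splicing factor subunit, lay just left of them. Outside, CSF3R, the receptor for granulocyte colony-stimulating factor, and MRPS15, a mitochondrial ribosomal protein, lay 0.29 and 0.31 Mb left of end 1. RRAGC, a Rag GTPase that signals amino acid supply to mTORC1, MYCBP, a MYC-binding protein, and GJA9, a connexin, lay 0.77 to 0.79 Mb right of end 2.

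Genes that the high corners bring together had raised contact in SNU-C1. CSF3R and POU3F1, with starts 1.56 Mb apart in hg19, shared 122 read pairs in SNU-C1 (O/E 3.68), 43 in SW480 (19 and 24; O/E 0.922), 36 in HCC1954 (1.09) and 28 in OE33 (0.859). CSF3R with UTP11, FHL3 and SF3A3, which fall on the same bin, shared 123 in SNU-C1 against 50, 42 and 32. On the other side GRIK3 and RRAGC shared 69 read pairs in SNU-C1 (O/E 2.63), 25 in SW480 (0.735), 13 in HCC1954 (0.565) and 8 in OE33 (0.405).

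Further from the ends the excess shrank. ZC3H12A, an RNase that limits inflammatory transcripts, shared 90 read pairs with RRAGC in SNU-C1 (O/E 1.87), against 58, 49 and 28. MYCL, a MYC family gene of the list beyond the boundary at 39.52 Mb, was chosen after its values were seen as a partner of GRIK3 and shared 6 read pairs in SNU-C1 (O/E 0.439), 4 in SW480, 1 in HCC1954 and 2 in OE33. At so few read pairs no difference was detectable.

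Contacts in the reference order were lower in SNU-C1 at end 1 of the short arm than in the other lines. Across end 1 the O/E was 1.06 in SNU-C1, 1.22 in SW480, 1.37 in HCC1954 and 1.41 in OE33, and across end 2 it was 1.01, 0.929, 0.989 and 0.972. The SNU-C1 interval at end 1 (1.03 to 1.09) lay below those of the other lines, and at end 2 (0.982 to 1.03) it overlapped those of HCC1954 (0.959 to 1.02) and OE33 (0.942 to 1.002).

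The 2 joins showed no raised contact with each other. Between either short-arm end and either long-arm end, SNU-C1 had 30 to 52 read pairs and an O/E of 0.426 to 0.826. Over the same 4 combinations the O/E ran from 0.615 to 0.991 in SW480, from 0.975 to 1.40 in HCC1954 and from 1.04 to 1.35 in OE33. SNU-C1 was below the maps of the other lines at each combination, except that SW480 replicate 2 had 0.5002 (29 read pairs) between 38.56 and 209.08 Mb, where SNU-C1 had 0.540 (38 read pairs).

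Other line-specific contacts of chromosome 1 were sparse. A block pair of 200 kb was counted as line-specific with an O/E of at least 4, at least 4 times the highest other line after 0.5 was added, and 10 or more read pairs. Of 561542 block pairs at least 2 Mb apart, SNU-C1 had 28 (0.00499%), SW480 5 (0.00089%), HCC1954 4 (0.000712%) and OE33 13 (0.00232%). Over all chromosomes the shares were 0.0399% in SNU-C1, 0.0104% in SW480, 0.0423% in HCC1954 and 0.0169% in OE33. Chromosome 1 was below this pooled share in each line. The shares were not matched for distance, and the read pair minimum is harder to reach at long distances, so chromosomes of unlike length are not compared on equal terms. The pooled share is uneven, since chromosome 15 gave 1208 of the 1798 block pairs of SNU-C1, and chromosomes 14, 20, 21 and 22 gave 0. The order of the lines depended on the settings, since without correction HCC1954 had 65 against 44 in SNU-C1, at a ratio of 3 OE33 had 77 against 61, with 400-kb blocks OE33 had 8 against 5, and SW480 had 1 to 2 without a replicate. The long-arm join gave 19 of the 28 SNU-C1 block pairs, up to 765 read pairs between the blocks at 200.6 and 209.2 Mb. The other 9 held 10 to 21 read pairs at distances of 38.6 to 130.4 Mb. The short-arm join is shorter than the 2-Mb minimum and gave no block pair.

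By bin pairs, summed over 3 by 3 bins at least 1 Mb apart, 698 of 14024585 were specific to SNU-C1 (0.00498%), 140 to SW480 (0.000998%), 117 to HCC1954 (0.000834%) and 477 to OE33 (0.0034%). The pooled shares over all chromosomes were 0.0276%, 0.00613%, 0.0292% and 0.00881% in that order, again above those of chromosome 1 and again not matched for distance. Chromosome 15 alone gave 23946 of the 31040 bin pairs of SNU-C1. Of the 698 in SNU-C1, 502 lay at the long-arm join, 11 at the short-arm join and 185 elsewhere. Elsewhere covers pairs farther from the ends, also where they fall in the high corner of the long-arm join. Neighbouring pairs formed 123 clusters in SNU-C1, of which 18 had 3 or more bin pairs, compared with 8 of 102 in SW480, 8 of 73 in HCC1954 and 42 of 205 in OE33.

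Beyond the joins, the largest SNU-C1 clusters had few read pairs. One of 8 bin pairs tied 17.2 Mb, at CROCC, a centrosomal rootlet gene, to 45.16 Mb, at KIF2C, a mitotic kinesin, and ARMH1 with 17 read pairs against 2 in each other line, and the bin at 17.2 Mb had a coverage of 0.370. Another of 6 bin pairs tied 199.72 to 248.0 Mb, at TRIM58 and OR11L1, with 11 read pairs against 1, 0 and 0 in SW480, HCC1954 and OE33. Among block pairs, 199.2 with 242.6 Mb had 21 read pairs in SNU-C1 against 5, 2 and 5, and 200 Mb also reached 238.6 Mb with 15 and 242.8 Mb with 12. Except for the cluster at 17.2 Mb, these contacts link sequence left of end 1 to sequence right of end 2 of the long-arm join. The same holds for 26 bin pairs between 190 to 200 Mb and 230 to 240 Mb. Their relation to the join was not tested. Each interval is wide at these counts, and no replicate map of SNU-C1 was analysed here.

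The read pairs of a cluster are those of its bin pair whose O/E most exceeded the other maps. By that count the highest cluster of the other lines was in HCC1954, between 145.04 Mb, at PDE4DIP and SEC22B, and 156.52 Mb, at IQGAP3, a regulator of cell growth, and TTC24. It had 13 bin pairs and held 172 read pairs (147 to 200) with an O/E of 8.22, against 15 in SW480, 12 in SNU-C1 and 16 in OE33, and the bin at 145.04 Mb had a coverage of 3.97 in HCC1954. OE33 had 228 of its 477 bin pairs between 70 to 80 Mb and 100 to 110 Mb on the short arm, where the bins at NEGR1, a neuronal adhesion gene, reached 15 read pairs with 106.08 Mb against 1, 1 and 0 in SW480, SNU-C1 and HCC1954. A further 34 lay within 190 to 200 Mb, and a cluster of 13 between 191.08 and 195.24 Mb had 42 read pairs in OE33 against 11, 14 and 14. Of the 8 larger clusters of SW480, 7 ended in the bin at 121.48 Mb, which had a coverage of 3.64. Most of this bin lies inside the centromere gap, which starts at 121485435.

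**Figure D4:**
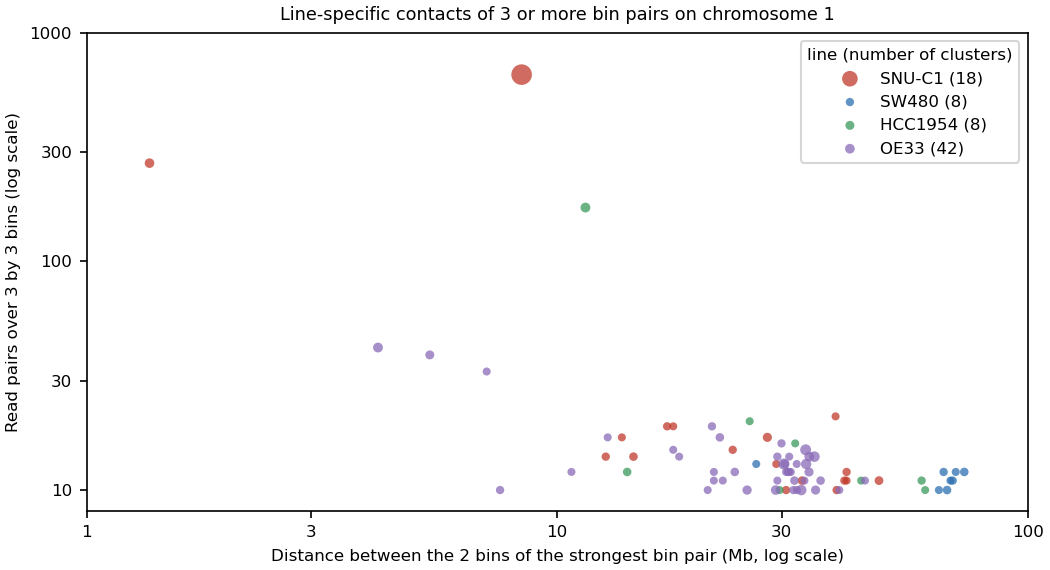
Line-specific clusters of 3 or more bin pairs on chromosome 1, by the distance between the bins of the strongest pair (Mb, log scale) and its read pairs over 3 by 3 bins (log scale), with lines as colours and larger points for clusters of more bin pairs. The long-arm join (656 read pairs), the short-arm join and one HCC1954 cluster (172) stand above the rest, most of which hold 10 to 20 read pairs.

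The long arm of chromosome 1 had more coverage than the short arm in SNU-C1. Its median was 0.9502 over 2844 bins of 1p and 1.34 over 2475 bins of 1q, a ratio of 1.41. In SW480 the medians were 0.957 and 1.02, a ratio of 1.06 in the pool and also 1.06 in each replicate. HCC1954 had 1.01 and 1.47 (ratio 1.46) and OE33 had 0.840 and 1.09 (ratio 1.30). The ratio of SNU-C1 lay between those of OE33 and HCC1954 and above both SW480 replicates.

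Within the long arm SNU-C1 was not even. In 5-Mb segments its coverage was 0.909 at 145 Mb, 1.15 at 150 Mb, 1.16 at 155 Mb, and 1.37 to 1.56 in the 8 segments from 160 to 200 Mb. The segments starting at 200 and 205 Mb, which the ends of the long-arm join nearly fill, fell to 0.653 and 0.722. From 210 Mb onwards values went from 1.53 down to 1.10 in the last segment. On the short arm SNU-C1 rose from 0.539 in the first 5 Mb, which had only 27 usable bins, to 1.18 at 85 Mb, and its relative coverage ran from 0.876 to 1.201 over the short-arm segments.

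Coverage of the listed genes overlapped between the arms in SNU-C1, from 0.515 at TP73 to 1.23 at BCL10, an adaptor of NF-κB signalling, on the short arm and from 0.936 at BCL9, a WNT coactivator, to 1.54 at PTGS2 on the long arm outside the ends of the join. Relative coverage on the short arm was 0.686 at TP73, a p53 family member near the chromosome end with 8 usable bins, 0.899 at ARID1A, a subunit of the SWI/SNF remodeller, 0.951 at MUTYH, a base excision repair glycosylase, and 0.984 at NRAS, a RAS GTPase. On the long arm outside the join the highest were PTGS2, the inducible cyclooxygenase, with a coverage of 1.54 (relative 1.43), and ABL2, a tyrosine kinase, with 1.43 (relative 1.30). MCL1, an anti-apoptotic BCL2 family member, had 1.21 in SNU-C1, 0.945 in SW480, 1.74 in HCC1954 and 1.03 in OE33. PARP1, a DNA damage sensor, had a relative value of 1.002. On the short arm OE33 had a coverage of 0.702 at CDKN2C, a cell cycle inhibitor, where SNU-C1 had 1.14, whereas at JUN, a subunit of the AP-1 transcription factor, they were closer, with 1.18 and 1.23.

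**Figure D5:**
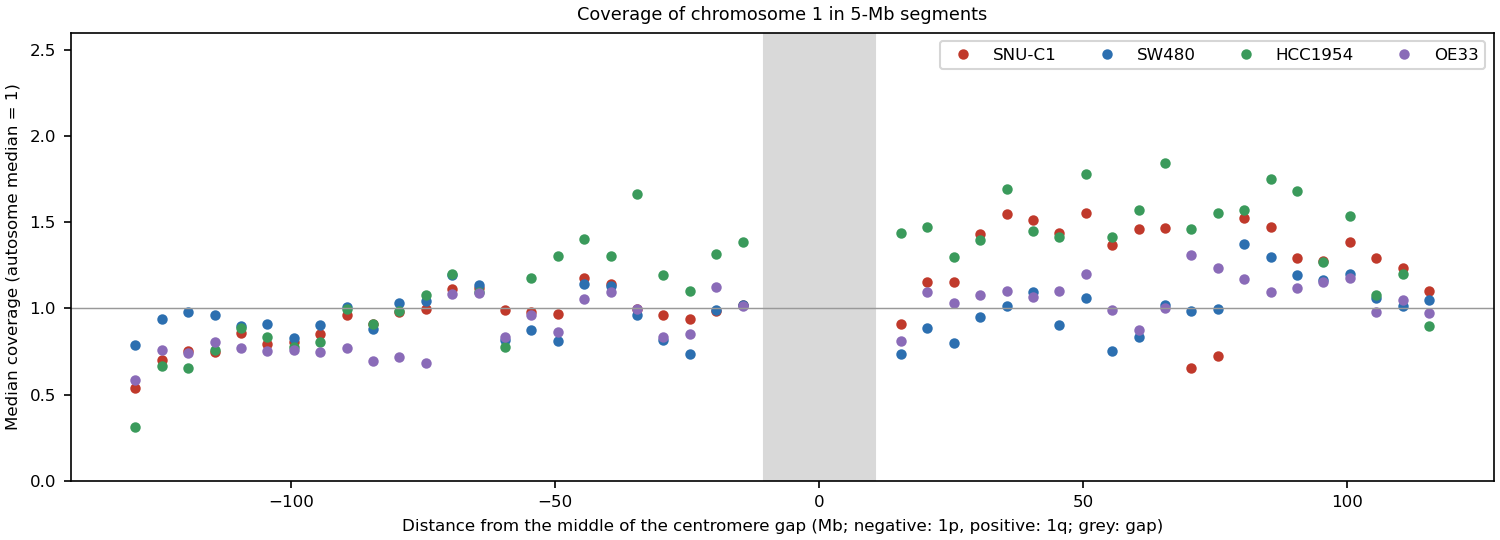
Median coverage of 5-Mb segments of chromosome 1 (1 is the autosome median of each line) against distance from the middle of the centromere gap (Mb), with the short arm at negative values, the gap in grey and lines as colours. SNU-C1 lies at 1.37 to 1.56 over 8 neighbouring segments of the long arm and drops to 0.653 and 0.722 in the following 2.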

How the data were processed

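Contact maps from in situ Hi-C with MboI were analysed for SNU-C1, HCC1954, OE33 (1 map each) and SW480 (replicates 1 and 2 and their pool). According to the methods, the authors used BWA-MEM on hg19, Picard to drop duplicates and iterative correction, with no versions in the processing notes. Deposited values are a signal, the contact frequency of 40-kb bin pairs after correction. Read pairs were recovered by fitting a factor for each bin, with 0 columns of values left unused. Recovery and contact calls were tested on simulated data. Because the correction divides out coverage, coverage was taken from the recovered read pairs. Usable bins had at least 0.25 of the autosome median in all 4 lines, and expected values were averaged over 10% of the distance beyond 5 Mb. Insulation used a 1-Mb window, a 200-kb delta and a strength of 0.1.

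No test between lines was made, so values are given with 95% intervals of counting error. The contacts, thresholds and gene list were chosen with earlier results of these data known. Named genes were those at the ends of the joins, up to 4 nearest on each side within the boundary, those at the ends of other clusters, and a list of 22 cancer and developmental genes. Some genes and sequences that fall under this rule are not reported here. Gene positions were from GENCODE v44lift37, on the build of the maps. Alternatives covered the correction, the size of the bin sums, expected values, read pair minimum, ratio, block size, reference line, boundaries and each SW480 replicate. The calculations ran in Python 3.11.15 with pandas 2.3.3, numpy 2.4.6, scipy 1.17.1 and matplotlib 3.10.9.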

Additional observations from a re-analysis of the deposited data

How the results depend on the processing

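Of 60 alternatives, 22 left a value unchanged, 5 of them by construction, 37 moved it and 1 reversed it. Unchanged meant within counting error or replicate spread, except for counts of block pairs, which had to stay within a fixed fold of the main count. The cause of the changes was not tested. The SNU-C1 ratio at the short-arm join, 6.66, was 5.73 without correction, 11.6 over a single bin pair and 4.22 over 5 by 5 bins, and it was 6.66 without either SW480 replicate, which could not change it because HCC1954 is the highest other line. The ratio at the long-arm join, 57.3, became 71.0, 34.5 and 29.3 under the same settings and was 57.3 without either replicate for the same reason. Relative coverage between the short-arm ends, 1.02, was 1.198 from pairs at least 1 Mb apart, 1.14 against HCC1954 alone and 0.970, the reversal, against OE33 alone, and it was 1.01 to 1.02 without a SW480 replicate. From pairs at least 1 Mb apart the flanks had 0.925 on the left and 1.25 on the right. Between the long-arm ends 0.516 became 0.524 from pairs at least 1 Mb apart, 0.669 against SW480, 0.447 against HCC1954 and 0.504 against OE33, with 0.514 to 0.517 without a replicate. The left and right flanks of the long-arm join were 1.49 and 1.3 from pairs at least 1 Mb apart. They were 1.23 and 1.17 against SW480, 0.715 and 0.717 against HCC1954, and 1.09 and 1.04 against OE33. The log2 contrast of the short-arm join, 0.88, was 1.29 with a 480-kb insulation window and also 1.29 with boundaries from SNU-C1. Both settings placed the boundaries at the same distances from the short-arm ends. Summed distances up to 2 Mb could not change the short-arm contrast. That of the long-arm join, 0.62, was 0.75 with SNU-C1 boundaries.

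Counts of block pairs depended most on the read pair minimum. Without it they were 758 in SNU-C1, 171 in SW480, 1274 in HCC1954 and 550 in OE33, and at a ratio of 3 they were 61, 16, 18 and 77. With 400-kb blocks they were 5, 1, 0 and 8. Without correction SNU-C1 had 44, HCC1954 65 and OE33 8, and with expected values from chromosome 1 SW480 had 9. Without a SW480 replicate the counts were 32 to 33 in SNU-C1, 1 to 2 in SW480, 4 to 7 in HCC1954 and 13 to 14 in OE33. The 1q to 1p ratio of SNU-C1 was 1.46 from pairs at least 1 Mb apart and 1.42 away from the gap and the chromosome ends. Leaving out bins within 1 Mb of the centromere gap, chosen after seeing the data, took the SW480 bin pairs from 140 to 84 and moved no other line. No paired analysis was possible because only the SW480 maps carry replicate numbers. Counts of 10 to 20 read pairs limit the contacts outside the joins, and ends are placed to 1 bin of 40 kb.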

Other observations

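In the bin at 121.48 Mb, most of which lies in the centromere gap, recovered read pairs of the SW480 replicates did not sum to those of the pool. For its contact with 188.84 Mb the replicates held 7 and 6 read pairs and the pool 10, and for 194.76 Mb they held 10 and 6 against 12. The count with the pooled map was used in the report. At 79.56 Mb, at ADGRL4, and 106.04 Mb the replicates held 6 and 7 read pairs and the pool 13, with 1 in each of SNU-C1, HCC1954 and OE33.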
